A study of Mus musculus with 8 samples.

Results

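The matricellular genes examined here were Tnc, Postn, Thbs1, Thbs2, Ccn1, Ccn2, Fn1, Sparc and Spp1, a list of 9 taken by name. The list was chosen with earlier results of these data known. A gene was counted as measured when the platform annotation gave at least 1 probe set its symbol alone, which held for 8 of the 9, out of 8352 genes that passed a brightness filter on the arrays. Spp1, which encodes osteopontin, was not analysed here. The cells were C2C12 myotubes, fused from an established mouse myoblast line in medium with 2% horse serum. Both groups were fed alike until day 4. The 4 control samples (arrays A to D) then received fresh medium every 48 h, and the 4 starved samples (arrays E to H) received none for 4 days. RNA of both groups was taken on day 8, so starved cells differed from controls in spent medium as a whole, not in a single nutrient. C2C12 is a single line without other tissue cells, and cultures usually keep some unfused cells beside the myotubes. The labels do not say whether the arrays of a group came from separate cultures, so the spread between them may be technical.

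Matricellular proteins are secreted into the extracellular matrix or bound to it, where they act mainly as signals rather than as structural fibres. They bind integrins, syndecans, growth factors and proteases, and so change how strongly cells adhere and which signals reach them. Many are scarce in resting adult muscle and abundant during development, regeneration and fibrosis. TGF-beta and the stretch-sensitive YAP and SRF transcription pathways are well-known inducers of several of them. Fn1, fibronectin, is itself a fibre-forming matrix protein and serves as the scaffold on which several others are deposited.

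Of the 8 measured genes 7 were lower in starved than in control myotubes, 0 were higher, and Thbs2 did not pass the test. The falls ranged from 7.46-fold for Tnc to 1.34-fold for Sparc. In bulk RNA, fewer cells of a type and less RNA per cell cannot be told apart. Calls were made with limma at an adjusted p of 0.05 (Benjamini-Hochberg over all 13575 probe sets tested). Over all genes tested, 6.93% were called lower and 4.25% higher. A fall of at least 2-fold was called in 4 of the 8 genes (Tnc, Postn, Thbs1 and Ccn2) and in 1.39% of all genes. All 4 starved arrays lay below all 4 control arrays in 7 of the 8 genes, against 10.3% of all genes. The median difference of the 8 genes was -1.08 on the log2 scale, and that of all genes 0.014. Because earlier results were known when the list was chosen, the shares of all genes describe these falls and do not test them. The 8 genes were covered by 13 probe sets, of which 11 were called lower and the 2 of Thbs2 were not called, against 6.23% called lower among all probe sets. Each of the 5 genes with 2 probe sets had both on the same side.

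Values below are log2 intensities after quantile normalization, differences are starved minus control with limma's standard error, and n = 4 arrays per group throughout. The deposited arrays differed in brightness, with trimmed means from 242 to 453 intensity units, and starved arrays were dimmer by a log2 difference of -0.38 (two-sided exact permutation test, p = 0.0857). Control B stood apart in the log2 ratio of 3' to 5' signal of the Gapdh control probe sets, at 1.40 against -0.23 to -0.04 on the other 7 arrays. In the same ratio of the actin control probe sets it did not stand apart. There it was at 0.32, with control D at 0.29 and the rest from 0.02 to 0.27. Without control B the same 7 genes remained lower. Of the 12 myotube markers, among them Myog, Acta1 and Ckm, all were bright enough to be tested.

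**Figure D1:**
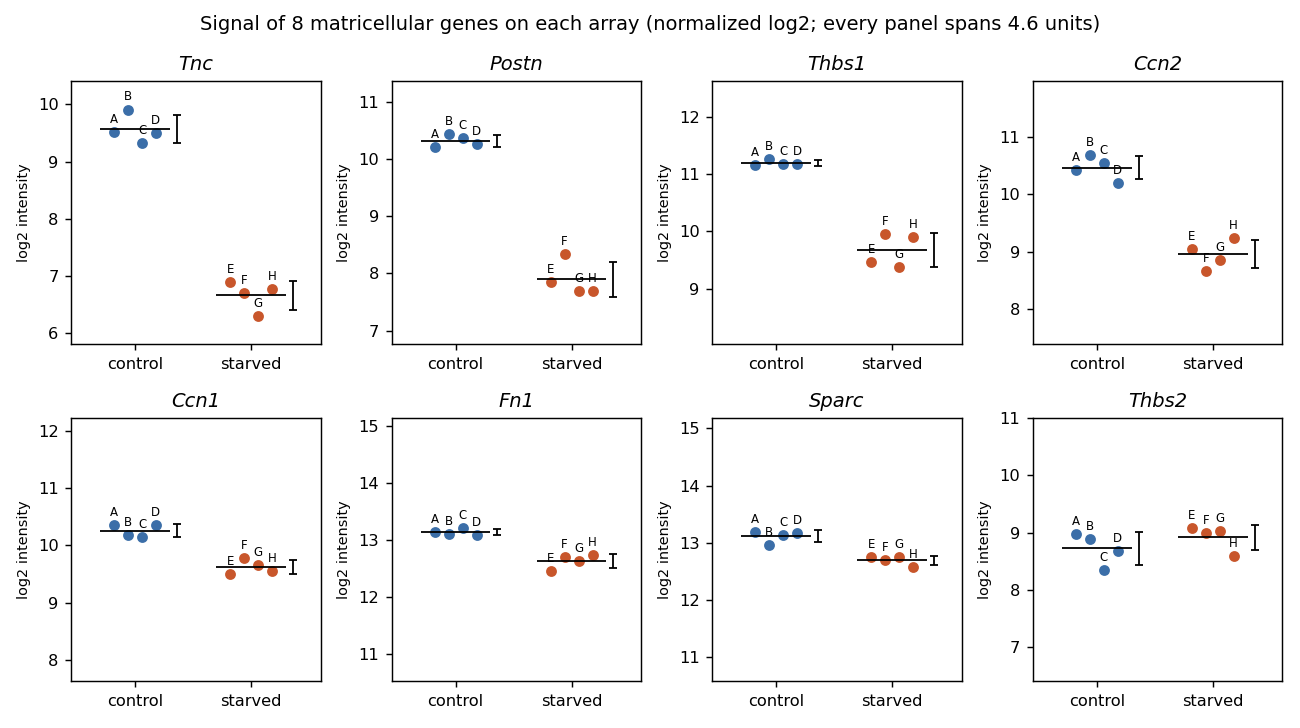
Normalized log2 intensity of the brightest probe set of each of the 8 measured genes on every array, with control arrays A to D in blue and starved arrays E to H in orange. Horizontal lines are group means, error bars are SD (n = 4), and all panels span the same log2 range; the groups are apart in every panel except that of Thbs2.

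Tnc and Postn had the largest falls. Tnc encodes tenascin-C, a hexameric glycoprotein that weakens cell attachment to fibronectin. Its probe set 1416342_at read 9.52, 9.91, 9.32 and 9.51 on control arrays A to D, against 6.89, 6.70, 6.31 and 6.77 on starved arrays E to H. The lowest control exceeded the highest starved array by 2.44. Tnc fell by 2.90 ± 0.16 (adjusted p = 1.14e-06), the second largest fall of all 8352 genes. In deposited intensities Tnc ran from 648 to 988 in controls and from 58.9 to 112 in starved arrays. The starved signal of Tnc was thus dim, and its difference was -2.59 with an offset at the 25th percentile and -3.05 without one. Tnc lies on mouse chromosome 4 at 63959785 to 64047015 (GRCm38.p6).

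Postn encodes periostin, a fasciclin-domain protein that binds collagen and integrins and is a usual product of fibroblasts under TGF-beta. Its only probe set, 1423606_at, read 10.21, 10.43, 10.36 and 10.26 on the control arrays, A to D. Starved arrays E to H gave 7.85, 8.34, 7.69 and 7.69. The control arrays were close together (SD 0.10), while starved F stood above the other 3 starved arrays (SD of the group 0.31). Postn fell by 2.42 ± 0.15, or 5.35-fold (adjusted p = 1.75e-06), the sixth place among all falls, with 1.87 between the groups. Postn lies on chromosome 3 at 54359267 to 54391041.

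The thrombospondins Thbs1 and Thbs2 are paralogs that form trimers, bind CD36 and CD47 and restrain blood vessel growth. Thbs1 also activates latent TGF-beta. Probe set 1460302_at of Thbs1 read 11.15, 11.27, 11.18 and 11.18 on control arrays A to D, against 9.46, 9.95, 9.38 and 9.90 on starved arrays E to H. Controls lay close together (SD 0.05) and starved arrays spread more (SD 0.29), and the groups were 1.20 apart. Thbs1 fell by 1.52 ± 0.13, or 2.87-fold (adjusted p = 2.36e-05). Its second probe set, 1450377_at, fell by 0.98 ± 0.17 (adjusted p = 0.00348). A further probe set, which the annotation assigns to Thbs1 and Pald1 together and which was therefore not counted, stood at -1.31 ± 0.13.

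Thbs2 was the exception. Probe set 1450663_at read 8.98, 8.89, 8.34 and 8.68 on control arrays A to D, against 9.07, 8.98, 9.02 and 8.59 on starved arrays E to H. The groups overlapped, with control C the lowest array of all and starved H below 3 controls. The difference was 0.19 ± 0.16 (adjusted p = 0.518), with a 95% interval from -0.16 to 0.54. The second Thbs2 probe set gave nearly the same difference, 0.19 ± 0.11 (95% interval -0.04 to 0.42, adjusted p = 0.308). These intervals do not reach the fall of Thbs1. In values left unscaled both Thbs2 probe sets stood at -0.17, again without passing. Thbs1 lies on chromosome 2 at 118111876 to 118127133 and Thbs2 on chromosome 17 at 14665500 to 14694262.

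The difference between the paralogs was tested on its own. Thbs1 minus Thbs2 was 2.17, 2.38, 2.84 and 2.50 on control arrays A to D, against 0.39, 0.97, 0.36 and 1.31 on starved arrays E to H. All starved arrays lay below all controls. The SD was 0.28 in controls and 0.46 in starved arrays, and the difference in change was -1.72 ± 0.27 by a two-sided exact permutation test (p = 0.0286, the smallest p that 70 labellings allow). The same p held after adjustment over the 2 paralog pairs compared. Omitting control B, control C, starved F or starved G raised this adjusted p to 0.0571, while omitting any other array left it at 0.0286. The unadjusted p of the tests with an array left out is not given here.

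Ccn1 and Ccn2, formerly called Cyr61 and Ctgf, encode small cysteine-rich proteins that bind integrins and heparan sulfate. Both are standard readouts of YAP activity and are induced by serum. Ccn2 read 10.43, 10.70, 10.55 and 10.20 on control arrays A to D, against 9.05, 8.67, 8.86 and 9.23 on starved arrays E to H. Ccn2 fell by 1.52 ± 0.14, or 2.86-fold (adjusted p = 4.72e-05), and its groups were 0.97 apart. In Ccn1, probe set 1416039_x_at read 10.35, 10.18, 10.15 and 10.36 in controls and 9.51, 9.77, 9.67 and 9.55 in starved arrays. Ccn1 fell by 0.63 ± 0.09, or 1.55-fold (adjusted p = 0.00128). The second Ccn1 probe set, 1438133_a_at, was lower by a similar amount, 0.71 ± 0.20 (adjusted p = 0.0457). It varied more, and its groups barely separated, with starved H at 9.0697 just under control B at 9.0714. That call did not survive testing all probe sets regardless of brightness (adjusted p = 0.0728) or a variance model with no trend (adjusted p = 0.0746). It was kept when control B or starved H was omitted, and lost when any other single array was (highest adjusted p = 0.115).

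Both CCN genes fell, but not equally. Ccn1 minus Ccn2 was -0.08, -0.52, -0.40 and 0.15 on control arrays A to D, against 0.46, 1.11, 0.81 and 0.32 on starved arrays E to H. All starved arrays lay above all controls, with control D and starved H the closest. The change of Ccn2 was lower than that of Ccn1 by 0.88 ± 0.23 (two-sided exact permutation test, p = 0.0286, also after adjustment over the 2 pairs). Here too the p adjusted over the 2 pairs rose to 0.0571 without control B, control C, starved F or starved G. Ccn1 lies on chromosome 3 at 145646971 to 145649985 and Ccn2 on chromosome 10 at 24595442 to 24598683.

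**Figure D2:**
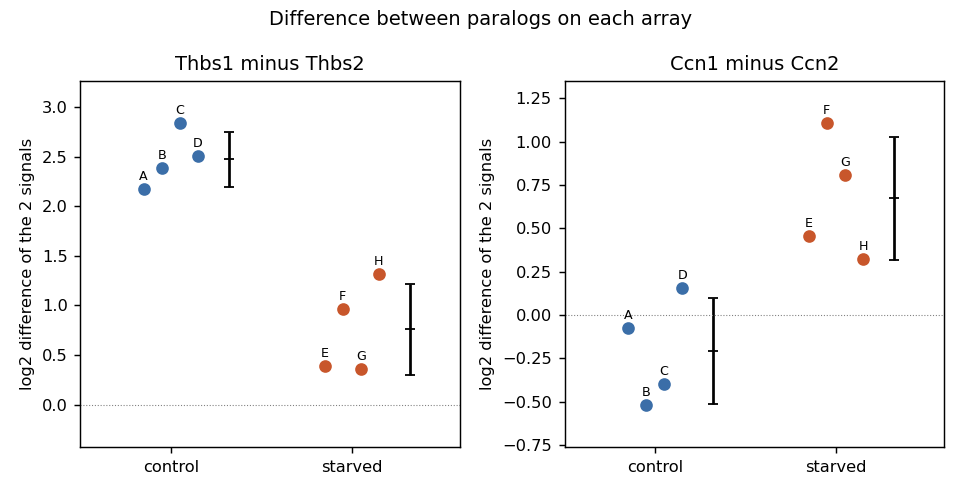
Difference of log2 intensity between the paralogs Thbs1 and Thbs2 (left) and Ccn1 and Ccn2 (right) on each array; error bars are mean and SD of the 4 arrays of a group. Starved arrays lie below all controls for Thbs1 minus Thbs2 and above all controls for Ccn1 minus Ccn2.

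Fn1 and Sparc, both read from bright probe sets, had the smallest called falls. Fn1 probe set 1426642_at read 13.14, 13.10, 13.21 and 13.09 on control arrays A to D, against 12.46, 12.71, 12.64 and 12.74 on starved arrays E to H. Fn1 fell by 0.50 ± 0.07, or 1.41-fold (adjusted p = 5.45e-04). Its dimmer probe set 1437218_at fell by 0.65 ± 0.14 (adjusted p = 0.0111). Fn1 lies on chromosome 1 at 71585473 to 71653280. Sparc encodes a calcium- and collagen-binding protein also called osteonectin. Its probe set 1416589_at read 13.19, 12.95, 13.14 and 13.17 in controls and 12.75, 12.70, 12.75 and 12.58 in starved arrays. Sparc fell by 0.42 ± 0.06 (adjusted p = 0.00173) and its second probe set 1448392_at by 0.35 ± 0.05 (adjusted p = 8.80e-04). Sparc lies on chromosome 11 at 55394159 to 55420080. The calls of both genes rest on the scaling between arrays. With arrays centred on their median Fn1 stood at -0.39 (adjusted p = 0.0595) and Sparc at -0.30 (adjusted p = 0.183). With centring on the 75th percentile they stood at -0.35 (adjusted p = 0.0652) and -0.26 (adjusted p = 0.202). The dimmer Fn1 probe set kept its call under both centrings, and neither Sparc probe set did. Under both 5 of the 8 genes remained lower, which were Tnc, Postn, Thbs1, Ccn2 and Ccn1.

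**Figure D3:**
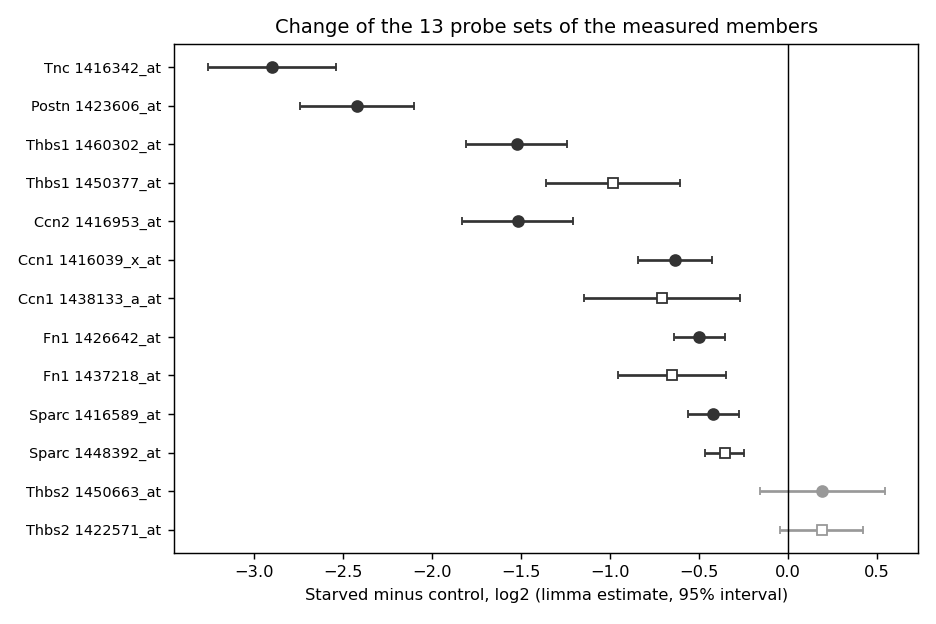
Starved minus control difference on the log2 scale with its 95% interval for all 13 probe sets of the measured genes; filled circles are the brightest probe set of a gene and open squares the second. Dark points passed an adjusted p of 0.05, and the grey points are the 2 probe sets of Thbs2.

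In order of their change the genes ran Tnc, Postn, Thbs1, Ccn2, Ccn1, Fn1, Sparc and Thbs2. Neighbours in this order were compared by their difference on each array. The differences were apart between groups from Postn to Thbs1 (0.90), from Ccn2 to Ccn1 (0.88) and from Sparc to Thbs2 (0.61). They overlapped from Tnc to Postn (0.48), Thbs1 to Ccn2 (0.01), Ccn1 to Fn1 (0.14) and Fn1 to Sparc (0.08). With two-sided exact permutation tests adjusted over these 7 neighbour pairs none passed, the lowest adjusted p being 0.0667 for the 3 that were apart. Those 3 already had the smallest unadjusted p this test allows, 0.0286, so their failure does not show equal changes. The pairs were also set by sorting on the same changes that were tested. Ccn2 to Ccn1 is the contrast given above, where adjustment over only 2 pairs left p at 0.0286. Starved H was the highest starved array in 5 of the 13 probe sets and the lowest in 4.

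The start regions of the members were compared through RefSeq windows of GRCm38.p6, from 250 bases before a start site to 50 bases after it. Windows were at hand for Tnc, Postn, Sparc, Thbs2 and Ccn1 among the measured genes. Both strands were searched for a TATA box (TATANA), the core bound by TEAD factors (GGAATG), an AP-1 site (TGANTCA) and the CArG box of SRF. Of all 32851 windows 24.7% held the first, 14.7% the second, 7.81% the third and 1.63% the CArG box. The Tnc and Postn windows are those of the inner of 2 listed start sites, shown because they hold a TATA box match near the start. They are shown with Ccn1, a smaller fall, and Thbs2, the gene that did not pass. Each is written along its gene's strand, with matches in capitals.
Tnc, chr4:64046887-64047186, minus strand: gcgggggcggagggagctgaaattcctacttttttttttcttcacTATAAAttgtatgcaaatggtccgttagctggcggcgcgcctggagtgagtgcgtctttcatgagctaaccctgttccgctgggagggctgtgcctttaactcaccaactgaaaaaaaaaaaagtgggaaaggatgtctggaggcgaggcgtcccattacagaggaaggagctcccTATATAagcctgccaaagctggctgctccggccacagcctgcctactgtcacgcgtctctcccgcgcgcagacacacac
Postn, chr3:54360857-54361156, plus strand: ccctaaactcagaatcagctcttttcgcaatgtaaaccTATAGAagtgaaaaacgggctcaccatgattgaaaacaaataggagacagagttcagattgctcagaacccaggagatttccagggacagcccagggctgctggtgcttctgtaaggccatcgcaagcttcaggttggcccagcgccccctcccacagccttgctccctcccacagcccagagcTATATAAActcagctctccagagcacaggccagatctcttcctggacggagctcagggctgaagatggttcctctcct
Ccn1, chr3:145649936-145650235, minus strand: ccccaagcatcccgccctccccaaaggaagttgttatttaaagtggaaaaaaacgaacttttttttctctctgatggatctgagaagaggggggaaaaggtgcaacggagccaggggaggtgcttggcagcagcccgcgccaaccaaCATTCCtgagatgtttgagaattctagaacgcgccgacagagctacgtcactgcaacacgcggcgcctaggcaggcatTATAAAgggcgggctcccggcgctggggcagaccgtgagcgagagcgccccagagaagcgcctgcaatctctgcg
Thbs2, chr17:14694213-14694512, minus strand: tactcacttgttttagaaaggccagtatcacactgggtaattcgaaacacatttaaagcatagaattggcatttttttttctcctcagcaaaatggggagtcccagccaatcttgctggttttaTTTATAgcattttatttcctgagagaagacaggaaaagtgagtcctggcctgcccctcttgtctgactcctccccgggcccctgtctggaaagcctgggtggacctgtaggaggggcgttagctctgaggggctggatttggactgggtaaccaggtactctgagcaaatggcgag

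Counted from the start site, the TATA box match began at -29 in Tnc, at -28 in Postn, where matches at -28 and -26 overlap, and at -25 in Ccn1. Matches farther away began at -205 in Tnc and at -212 in Postn. The windows of the outer start sites differed. That of Postn held none of the motifs, and that of Tnc held a single TATA box match, at -126. In Thbs2 the only match, on the other strand, also began at -126. The TEAD core was found in Ccn1 alone of these windows, at -103 and read on the other strand, as CATTCC. No AP-1 or CArG match lay in any of the windows of the 5 genes, and the Sparc window held none of the motifs. These letters describe short windows, and binding was not measured.

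Other genes of the matricellular families were examined as a list. Of 29 relatives listed, 26 had a probe set with their symbol alone. Of those, 11 were bright enough to be tested, of which 6 fell, 0 rose and 5 did not pass. Their median difference was -0.17. Fstl1, a SPARC-related follistatin-like protein, fell by 1.41 ± 0.09 (adjusted p = 3.06e-06). Fbln5, a fibulin of elastic fibres, fell by 1.37 ± 0.13, and Ccn4, a CCN gene also called Wisp1, fell by 1.04 ± 0.10. The count dropped to 3 lower without control A, control C, control D or starved H.

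Receptors for these proteins were mostly not called. Of 17 tested genes of the receptor list 4 fell, 0 rose and 13 did not pass, with a median of -0.15. The syndecan Sdc1, a heparan sulfate co-receptor, fell by 1.10 ± 0.09 (adjusted p = 2.17e-05), though only 1 of its 3 other probe sets was also called lower. Itgav, the alpha chain of integrins for RGD-bearing ligands, fell by 0.75 ± 0.09, and Sdc2 fell by 0.73 ± 0.08. The 1 other Itgav probe set tested was not called, and of 2 others for Sdc2 1 was. The remaining call was that of Itgb5, a partner of Itgav, which fell by 0.66 ± 0.09 with all 3 of its other probe sets also called lower. Itgb5 is outside the rule for named genes and was added after its value was seen.

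Among TGF-beta pathway genes 6 of 19 fell, 0 rose and 13 did not pass (median -0.25). Pmepa1, a feedback inhibitor induced by TGF-beta, fell by 1.42 ± 0.12 (adjusted p = 3.08e-05), the latent binding protein gene Ltbp2 fell by 0.996 ± 0.117, and the Smad co-repressor gene Skil fell by 0.98 ± 0.14. The 1 other Skil probe set tested was not called, and averaging its probe sets gave -0.54 (adjusted p = 0.0309).

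Of 29 tested genes of the YAP and SRF list 10 fell, 1 rose and 18 did not pass (median -0.27). The actin-binding gene Tagln fell by 2.65 ± 0.15 (adjusted p = 1.08e-06), the myosin light chain Myl9 fell by 1.99 ± 0.14 and the filamin Flna fell by 1.23 ± 0.09, all of them known SRF targets or genes of the actin cytoskeleton. Fhl1, a LIM protein of muscle, rose by 0.54 ± 0.06 (adjusted p = 1.37e-04), a call lost in unscaled values (0.22, adjusted p = 0.324). Ankrd1, which like Ccn1 and Ccn2 is a usual YAP target, was at -0.01 (adjusted p = 0.920). In the same list Amotl2 was at 0.29 (adjusted p = 0.159), Axl at -0.64 (adjusted p = 0.00729) and Lats2 at -0.73 (adjusted p = 0.0148). The 1 other Axl probe set and the 2 others of Lats2 were not called lower. Ankrd1, Amotl2, Axl and Lats2 were named after their values were seen.

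Enzymes and partners that assemble or cleave matricellular proteins fell in 10 of 19 tested genes and rose in 1 (median -0.41). The aggrecanase Adamts4 fell by 2.49 ± 0.11 (adjusted p = 3.96e-07), the collagen cross-linking enzyme gene Lox fell by 1.42 ± 0.12 and the plasminogen activator gene Plat fell by 1.34 ± 0.22. Mmp11 stood at 0.46 ± 0.12 (adjusted p = 0.0299), a call lost when any 1 of 7 of the 8 arrays was left out, starved G being the exception, and also in unscaled values (adjusted p = 0.785) and with median centring (adjusted p = 0.058). Averaging all probe sets of each gene left 6 genes of this list lower.

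**Figure D4:**
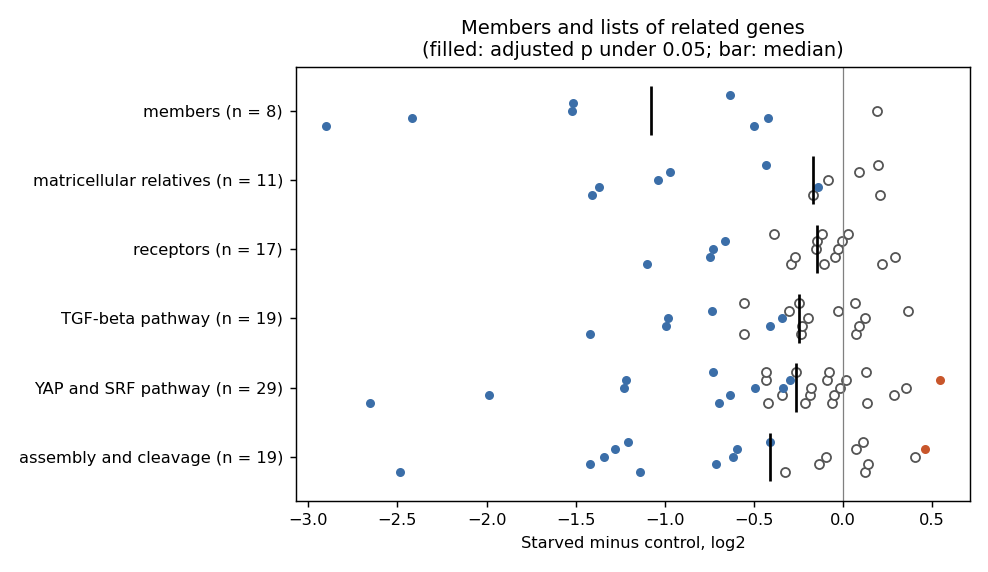
Starved minus control difference on the log2 scale of the 8 measured matricellular genes and of the tested genes of 5 related lists; each point is a gene, filled where the adjusted p was under 0.05, and vertical bars are list medians. The medians run from -0.15 for receptors to -0.41 for assembly and cleavage, with that of the 8 genes at -1.08.

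**Figure D5:**
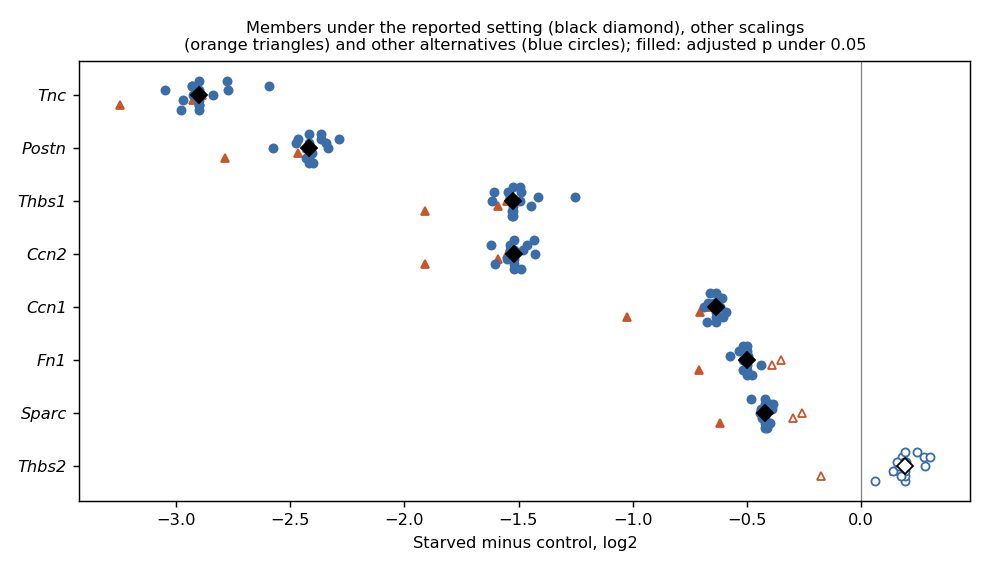
Starved minus control difference on the log2 scale of each measured member under the reported setting (black diamonds), other scalings (orange triangles) and the other alternatives (blue circles), filled where the adjusted p was under 0.05. Tnc, Postn, Thbs1, Ccn2 and Ccn1 are filled throughout, Fn1 and Sparc have open triangles under both centrings, and Thbs2 is open throughout.

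The genes with array profiles nearest to those of Tnc and Thbs2, the members with the largest and the smallest change, were sought among all tested genes except the members. Nearness was the Euclidean distance over 8 arrays of log2 values centred on the control mean. Nearest to Tnc were Chst15, a chondroitin sulfotransferase (distance 0.71), Mfap5, a microfibril protein (0.92), and Adamts4 (1.01). Chst15 fell by 2.97, Mfap5 fell by 2.52 and Adamts4 fell by 2.49. Averaging the probe sets of Mfap5 gave -1.53 (adjusted p = 1.70e-05). Nearest to Thbs2 were Tbx19, Gdap2 and Kcna6 (0.27 to 0.28), none of which passed the test (lowest adjusted p = 0.492), and all 3 of which were negative in unscaled values.

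Markers of other cell types were set beside these falls. Of 9 tested fibroblast markers 3 were lower (Pdgfrb, Col1a1 and S100a4), Dcn was higher (a call lost in unscaled values, adjusted p = 0.0924) and 5 did not pass, Pdgfra among them at 0.56 (adjusted p = 0.0782). Summed over the 10 with a probe set, their normalized intensity was 19435 to 21518 in controls and 14841 to 17304 in starved arrays. S100a4, the brightest of them (13.11 in controls and 12.42 in starved arrays), weighs most in this sum. The median change of the tested fibroblast markers was only -0.08. Of 7 smooth muscle markers 3 were tested and 2 (Tagln and Acta2) were lower, while Myh11, Cnn1, Lmod1 and Mcam were below the brightness filter. Acta2 lost its call with median centring (-0.18, adjusted p = 0.339), 75th percentile centring (-0.14, adjusted p = 0.403), no trend (adjusted p = 0.0635) or averaged probe sets (-0.14, adjusted p = 0.452), which left 1 lower. The smooth muscle sum ran from 12072 to 12597 in controls and from 8662 to 9492 in starved arrays. Acta2, the brightest of these markers (13.22 in controls and 12.92 in starved arrays), weighs most in it. The part of fibroblast-like or smooth muscle-like cells in the falls was not tested. Of the 12 myotube markers 1 was lower, 2 were higher and 9 did not pass, with sums of 89216 to 92813 in controls and 86966 to 89055 in starved arrays. These counts moved with the processing. In unscaled values 3 were lower and 1 higher, with Actn2 no longer called (0.19, adjusted p = 0.494). Des, the 1 called lower, lost its call with both centrings, without a filter, without a trend and with averaged probe sets (highest adjusted p = 0.847). Without starved E 2 were lower. Myoblast marker sums overlapped (8785 to 10545 against 8842 to 9794), and 1 of 6 tested was higher (Vcam1). Vcam1 lost its call in unscaled values (0.58, adjusted p = 0.129), where 1 myoblast marker was lower, and with averaged probe sets (0.38, adjusted p = 0.123). Blood cell, endothelial, adipocyte and bone or cartilage markers had 0 calls among 4, 2, 1 and 4 tested genes, and their sums overlapped. Ptprc, Pecam1 and Vwf were below the filter.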

How the data were processed

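Expression was measured on Affymetrix mouse arrays, 1 per sample, in 4 control and 4 starved C2C12 myotube samples, grouped by their titles. The deposited values are intensities on a linear scale, 1 per probe set. How the authors computed them was not given in the sources used here. With 4 arrays per group, precision is limited by array number.

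Trimmed means of the arrays (2% left out at each end) strayed over 5% from their median. Values were therefore raised by 10.9, their 10th percentile, turned to log2 and quantile normalized. Fold changes on this scale understate those of dim genes. After removal of 64 control probe sets, only those brighter on average than the 40th percentile (log2 6.61) entered the tests. A 2016 platform annotation gave 1 symbol to 20380 probe sets, several to 691 and none to 1555. Each gene was represented by the brightest of its tested single-symbol probe sets. Loci and start windows come from RefSeq (GRCm38.p6), matched by symbol.

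Groups were compared with limma 3.58.1 in R 4.3.3 (lmFit, eBayes with intensity trend), a fit also checked on simulated data. Paralog differences were compared by two-sided exact permutation tests, with standard errors from both groups' SDs. Plots used matplotlib 3.10.9 under Python 3.11.15. Named genes were all members, the 3 called genes that changed most in each list with 1 of the opposite direction, and the nearest profiles. Exceptions are stated. The members and lists were chosen with earlier results of these data known.

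The alternatives covered scaling (unscaled, or centred on the median or the 75th percentile), the offset (none, or the 25th percentile) and the brightness filter (none, or the 60th percentile). They also covered the variance model (no trend, robust, array weights), averaging the probe sets of a gene, omitting each array in turn, and requiring a 2-fold change.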

Additional observations from a re-analysis of the deposited data

Results flagged for a closer look

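Among 32 groups of 4 arrays examined (each probe set of the members in each group, the Gapdh ratio and both paralog differences), 3 held an array far from the other 3 by Dixon's criterion, where chance gives about 1 in 20. Starved G was low for the second Thbs1 probe set, 1450377_at, at 8.72, against 9.37 to 9.48 on the other starved arrays. Starved H was low for the second Thbs2 probe set, 1422571_at, at 8.32, against 8.51 to 8.54 on the others. Control B had a Gapdh 3' to 5' log2 ratio of 1.40, with the next highest control at -0.12.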

How the results depend on the processing

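Tnc, Postn, Thbs1, Ccn2 and Ccn1 kept their direction and their call under all 19 alternatives other than the 2-fold minimum. Their log2 differences ran from -3.25 to -2.59, -2.79 to -2.29, -1.91 to -1.25, -1.91 to -1.43 and -1.02 to -0.59. Fn1 and Sparc kept theirs under 17 of 19 and lost the call with both centrings, as given above. The cause was not tested. With a 2-fold minimum 4 members were lower (Tnc, Postn, Thbs1 and Ccn2), and Ccn1, Fn1 and Sparc were not. In unscaled values the median of all probe sets moved from 0.02 to -0.33, and Thbs2 stood at -0.17 (adjusted p = 0.62), Tbx19 at -0.13, Gdap2 at -0.17 and Kcna6 at -0.12, all reversed in sign and not called before or after. Thbs2 did not pass under any alternative (lowest adjusted p = 0.269).

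Leaving out single arrays moved Thbs1 minus Thbs2 between -1.91 and -1.57 and Ccn1 minus Ccn2 between 0.74 and 1.01. Both kept their call without control A, control D, starved E or starved H (adjusted p = 0.0286, also the smallest p that 35 labellings allow). Without control B, control C, starved F or starved G both lost it (adjusted p = 0.0571). These p-values come from two-sided exact permutation tests and are adjusted over the 2 pairs. No paired analysis was possible because the replicate letters differ between the groups. The dim starved signal of Tnc limits how exactly its fall is known.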
